A study of Homo sapiens with 12 samples.

Results

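RD cells carrying the doxycycline-inducible NT5E hairpin construct titled ish2 were compared with Dox and without it. RD is an established human rhabdomyosarcoma line without a PAX fusion, and such tumours resemble immature muscle. The comparison used the 3 libraries of ish2 cells grown with 10 ng/mL doxycycline (Dox), which the labels call a CD73 knockdown, and the 3 libraries of ish2 cells grown without it, which the labels call control. They are 6 of the 12 libraries of the series. The other 6 came from RD cells with a second construct, titled ish, again as 3 with Dox and 3 without. All cells were left to attach for 24 h and then grown for 96 h in the presence or absence of the drug, and their mRNA was sequenced from both ends with 75-base reads. Every ish2 library carried the hairpin construct, so by their labels the groups differed in Dox alone. No sample with Dox and a non-targeting hairpin is in the data used here, so effects of doxycycline itself, of hairpin expression and of lower NT5E cannot be told apart. The labels do not say that replicates are separate cultures or whether the line is a clone, so p-values measure the spread between these libraries, which may be technical. No hairpin sequence was used here.

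NT5E encodes CD73, a cell-surface enzyme that removes the phosphate from extracellular AMP and so makes adenosine, the ligand of the ADORA receptors, which raise or lower cAMP inside the cell. An inducible hairpin is transcribed when doxycycline reaches its promoter's regulator. It is then exported from the nucleus, cut by DICER1 and loaded on an Argonaute protein, which represses mRNAs that pair with the guide strand.

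Members were the gene rows of the deposited count table with enough reads, which were 15206 of 26485 gene rows, and the 11279 rows below the count filter are not described. Gene counts were 29297178, 26957197 and 31249928 in the Dox libraries and 27605006, 26566603 and 27789289 in the libraries without Dox. Reads outside annotated genes made up 10.8 to 11.1% of reads with Dox and 11.5 to 11.9% without, and reads that could belong to several genes made up 2.34 to 2.37% with Dox and 2.57 to 2.58% without. The 50 most abundant genes held 9.17 to 9.27% of gene counts with Dox and 9.02 to 9.12% without. Levels are CPM, read counts scaled to a common library size, and folds are Dox over no Dox from edgeR's quasi-likelihood test, with a gene called at a Benjamini-Hochberg adjusted p below 0.05 over all tested genes.

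The muscle lineage of the cells was visible in both groups. The 10 muscle markers, 9 of them tested, summed to 2008 to 2046 CPM with Dox and to 1999.5 to 2055 CPM without, although 2 rose and 6 fell. The sums were made up chiefly of CHRNA1, at 1158, 1144 and 1156 CPM with Dox and at 1135, 1140 and 1133 CPM without. The median log2 fold change of the tested muscle markers was -0.58. Desmin (DES), the muscle intermediate filament, was at 500, 481 and 503 CPM with Dox and at 313, 316 and 318 CPM without, whereas the embryonic myosin MYH3 was at 24.5, 24.2 and 25.2 CPM with Dox and at 55.5, 56.4 and 58.9 CPM without. MYF5, another muscle-determining factor, was listed at 0 in every ish2 library. Of the markers of other cell types, 5 of 6 fibroblast, 4 of 7 neural, 3 of 7 endothelial, 3 of 7 epithelial, 3 of 8 leukocyte, 2 of 6 chondrocyte and no adipocyte markers passed the count filter, and KDR, KRT14, ADIPOQ, FABP4 and LEP were at 0. Summed over whole lists, the leukocyte markers had 5.28 to 5.60 CPM with Dox and 3.15 to 4.23 CPM without (2 of 3 tested were higher), the epithelial ones, chiefly keratin 18, 61.9 to 62.6 CPM with Dox and 38.3 to 43.8 CPM without (3 of 3 higher), and the fibroblast ones 5018 to 5091 CPM with Dox and 4526 to 4556 CPM without (3 of 5 tested higher, 2 lower, of which DCN was above 0 in 1 library). The endothelial markers had 10.7 to 11.1 CPM with Dox and 11.4 to 12 CPM without, the neural ones 410 to 429 CPM with Dox and 431 to 448 CPM without (1 of 4 tested higher, 2 lower), and the chondrocyte ones 67.1 to 69.3 CPM with Dox and 69.1 to 69.5 CPM without. Their part in the results below was not tested. In these bulk libraries fewer cells of a type and less RNA per cell cannot be told apart.

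The targeted gene was lower with Dox, but by less than many other genes. NT5E was at 14.5, 15.2 and 14.1 CPM in the Dox libraries and at 24.1, 23.5 and 22.1 CPM in the libraries without Dox. The groups did not overlap, as was the case for 66.6% of all tested genes. The log2 fold change was -0.67 (SE 0.07, 1.59-fold lower, edgeR adjusted p = 4.62e-11), and 1987 called genes had a larger absolute change. In ish cells NT5E fell by 3.41 on the log2 scale, and the difference between the effects, ish2 minus ish, was 2.74 (adjusted p = 2.91e-19). An exact two-sided permutation of the 3 against 3 ish2 libraries gave p = 0.1 for NT5E, as it did for SEMA7A, SOX9 and GTF3A, which is the smallest p that this design allows. NT5E lies on the plus strand of chromosome 6 (GRCh38, 85449584 to 85495791).

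The Dox response in ish2 was broad and mostly small. Of the 15206 genes, 9883 were called, which is 65%, with 5150 higher (33.9%) and 4733 lower (31.1%). Counts of calls in the gene lists below are to be read against these shares. Most calls were small changes: 3724 were below 1.2-fold, 3662 between 1.2-fold and 1.5-fold and 1564 between 1.5-fold and 2-fold. The remaining 933 genes changed at least 2-fold (6.14% of tested genes), of which 590 were higher (3.88%) and 343 lower (2.26%). Only 116 passed 4-fold, with 81 higher and 35 lower. CCL11, DCN, GJA5, MIR1-1HG and VTCN1, 5 of the genes called lower, were at 0 in every Dox library, so the size of their fitted change is not given. For DCN the call rests on no-Dox replicate 1 alone, at 0.433 CPM, since no-Dox replicates 2 and 3 were at 0 too. The median log2 fold change over all tested genes was 0.01, and replicates varied by a biological coefficient of variation of 2.44%. When the null was set at a 1.2-fold change instead of no change, 4419 genes were called, 2264 higher and 2155 lower. The abundant genes with the smallest changes were VDAC3, a mitochondrial channel, CNOT2, a deadenylase subunit, HTT, the gene for huntingtin, URM1, SBNO1 and GPM6B, all with a log2 fold change that rounds to 0. HTT, for example, averaged 139 ± 0.591 CPM with Dox and 139 ± 6.82 CPM without (SD, n = 3 each).

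**Figure D1:**
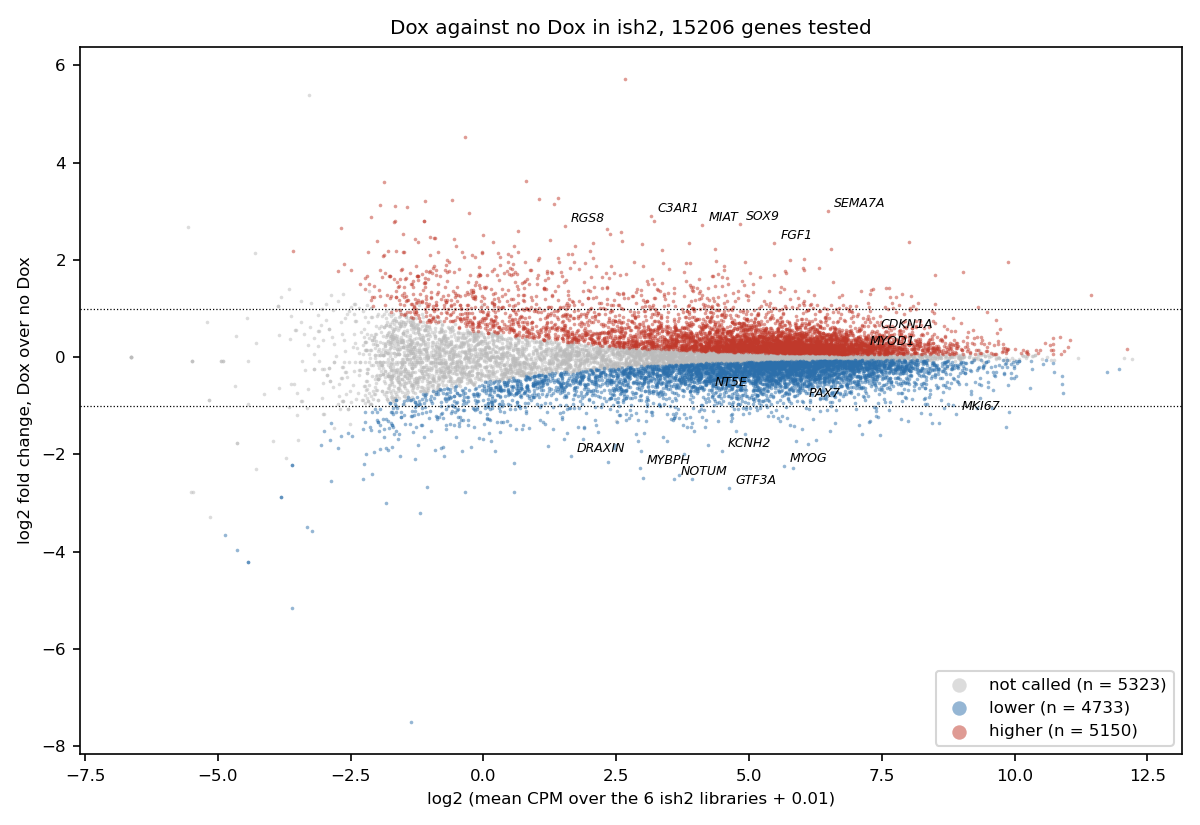
Log2 fold change of each tested gene, Dox over no Dox in ish2, against the log2 of its mean CPM over the 6 ish2 libraries. Red points are the 5150 genes called higher with Dox, blue points the 4733 called lower and grey points the rest, and dotted lines mark 2-fold. NT5E sits at -0.67, inside the dotted lines, while GTF3A, SEMA7A, SOX9 and C3AR1 sit far outside them.

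The fall that stood furthest from zero among genes with at least 0.5 CPM in both groups was that of GTF3A. It encodes TFIIIA, the zinc finger factor that starts transcription of the 5S ribosomal RNA genes by RNA polymerase III. GTF3A was at 7.47, 6.45 and 5.98 CPM with Dox and at 42.4, 42.5 and 43.5 CPM without, groups that lie far apart. It was 6.46-fold lower with Dox (log2 fold change -2.69, SE 0.06, edgeR adjusted p = 2.13e-29). For ish cells the value was -0.08 (adjusted p = 0.0732), and the effects differed by -2.61 (ish2 minus ish, adjusted p = 1.22e-26). GTF3A lies on chromosome 13 (27424544 to 27435823, plus strand).

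Genes that work beside TFIIIA moved far less, and in both directions. Of 36 genes of the 5S ribonucleoprotein and RNA polymerase III machinery, 16 were higher and 6 lower with Dox. Over all tested genes the shares were 33.9% higher and 31.1% lower. The median log2 fold change was 0.06, against 0.01 over all genes. POLR3G, one of a pair of alternative subunits of RNA polymerase III, was at 36.6, 36.4 and 35.4 CPM with Dox and at 9.61, 9.54 and 10.4 CPM without (log2 fold change 1.87, SE 0.06, edgeR adjusted p = 2.96e-24), while its alternative POLR3GL changed by 0.18. GTF3C6, a subunit of TFIIIC, was the next largest rise in the list (80.8 ± 2.79 CPM with Dox and 46.8 ± 1.88 CPM without, log2 fold change 0.78). SNAPC1 (0.48), GTF3C3 (0.40), POLR3D (0.37) and POLR3A (0.34) rose by less. MAF1, the repressor of RNA polymerase III, rose by 0.17. The falls besides GTF3A were SNAPC5 (-0.95), BRF1, a subunit of TFIIIB (-0.47), RPL5 (-0.44), GTF3C5 (-0.15) and GTF3C2 (-0.11, adjusted p = 0.0566 without no-Dox replicate 3). RPL5, a ribosomal protein that carries 5S rRNA, was at 866, 864 and 861 CPM with Dox and at 1147, 1196 and 1161 CPM without. Its partner RPL11 had 1224, 1230.4 and 1224 CPM with Dox and 1134, 1139 and 1146 CPM without, a rise of 0.11 on the log2 scale. The calls of POLR1D, POLR3K and SNAPC3, all rises of at most 0.13, were lost under 11, 6 and 7 of the alternatives, most of them the removal of 1 library. The 5S rRNA itself was not analysed here.

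A gene of small RNA export changed most among the 18 genes of the RNA interference machinery. RAN, the GTPase that drives transport through nuclear pores, including that of exportin 5, was at 206, 196 and 189.8 CPM with Dox and at 492, 502 and 506 CPM without. It was 2.54-fold lower with Dox (log2 fold change -1.34, SE 0.03, edgeR adjusted p = 1.34e-30), against a log2 fold change of 0.07 in ish, with a difference of -1.42 (adjusted p = 4.68e-28). Of the 18 genes, 11 were lower and 3 higher, against 31.1% lower and 33.9% higher over all tested genes, with a median of -0.14. The other falls were of at most 0.60 on the log2 scale. They included the silencing scaffolds TNRC6B (-0.60), TNRC6C (-0.41) and TNRC6A (-0.25), the microprocessor subunit DGCR8 (-0.41), the helicase MOV10 (-0.39) and the Argonautes AGO2 (-0.21) and AGO4 (-0.19). PRKRA, a partner of DICER1, rose by 0.43, AGO3 by 0.26 and the exporter XPO5 by 0.10. DICER1 averaged 166 ± 5.96 CPM with Dox and 161 ± 4.46 CPM without and was not called.

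SEMA7A showed the largest rise among genes with at least 5 CPM in the higher group and 0.5 CPM in the lower one. It encodes a membrane-anchored semaphorin that signals through integrins and plexin C1. SEMA7A was at 159, 161 and 157 CPM with Dox and at 20.8, 21.6 and 16.9 CPM without. It was 8.03-fold higher with Dox (log2 fold change 3.01, SE 0.05, edgeR adjusted p = 2.54e-23), whereas in ish it changed by -1.89, and the effects differed by 4.90 (adjusted p = 6.47e-22). SEMA7A is on the minus strand of chromosome 15 (74409289 to 74433958).

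The list of semaphorins and their receptors, which includes SEMA7A, split into rises and falls. Of 30 tested genes, 13 were higher and 16 lower with Dox, against 33.9% and 31.1% over all tested genes. By 2-fold, 7 were higher and 1 lower, against 3.88% and 2.26% over all tested genes, and the median log2 fold change was -0.13. Among receptors, NRP2 and NRP1 rose, NRP2 with 5.21, 5.60 and 5.46 CPM with Dox and 1.88, 1.61 and 1.16 CPM without (log2 fold change 1.80), and NRP1 by 1.30. SEMA4B rose by 1.17 and the repulsive ligand SEMA3A by 0.59. SEMA3B, a secreted semaphorin described as a tumour suppressor, was at 3.91, 3.75 and 4.28 CPM with Dox and at 21.6, 22.4 and 20.6 CPM without, a log2 fold change of -2.43 (SE 0.08, edgeR adjusted p = 3.06e-25). In ish SEMA3B had a log2 fold change of -0.01 and was not called (edgeR adjusted p = 0.86). The plexin PLXNB2 (-0.55) and SEMA6C (-0.61) fell, and PLXNC1, the plexin that binds SEMA7A, had a log2 fold change of 0.30 and was not called, while ITGB1, the integrin chain, changed by -0.12. NRP1, NRP2 and SEMA4B fall outside the rule for named genes and were chosen after their values were seen, as were DES, MYH3 and those genes below that are not among the largest changes or the smallest p-values of their list.

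SOX9, the transcription factor of cartilage and of many progenitor cells, rose in every Dox library. It was at 48.3, 50.3 and 49.8 CPM with Dox and at 8.16, 7.28 and 6.69 CPM without, a 6.7-fold rise (log2 fold change 2.74, SE 0.06, edgeR adjusted p = 7.34e-29). The value for ish was -2.38, and the difference was 5.13 (adjusted p = 2.89e-27). SOX9 lies on the plus strand of chromosome 17 (72121020 to 72126420). Of 10 tested SOX genes, 3 were higher and 4 lower, against 33.9% and 31.1% over all tested genes. SOX11, a factor of neural and mesenchymal progenitors, rose by 0.45 and SOX7 by 0.34. SOX8, of the same subgroup as SOX9, was at 212, 215 and 216 CPM with Dox and at 419, 425 and 412 CPM without (log2 fold change -0.97), and SOX12 (-0.86), SOX6, a partner of SOX9 in cartilage (-0.74), and SOX13 (-1.24) fell as well. SOX4, SOX15 and SOX18 were not called.

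Cartilage genes were called about as often as genes in general. Of 17 tested genes of cartilage matrix or known as SOX9 targets, 6 were higher and 6 lower, against 33.9% higher and 31.1% lower over all tested genes, with a median log2 fold change of -0.24. COL2A1, the cartilage collagen that SOX9 is known to activate, was at 67.3, 68.0 and 65.8 CPM with Dox and at 67.7, 67.9 and 67.3 CPM without. It was not called (log2 fold change -0.01, SE 0.03). COL11A1 rose by 0.99, RUNX2, the bone factor, by 0.90 and the matrilin MATN3 by 0.87. COL9A3, a chain of type IX collagen, was at 5.21, 5.93 and 5.46 CPM with Dox and at 21.7, 20.7 and 23.1 CPM without (log2 fold change -1.98, SE 0.08, edgeR adjusted p = 1.41e-22), and COL9A2 fell by 0.70. The chondrocyte markers CNMD and HAPLN1 were at 0 in all 6 libraries.

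**Figure D2:**
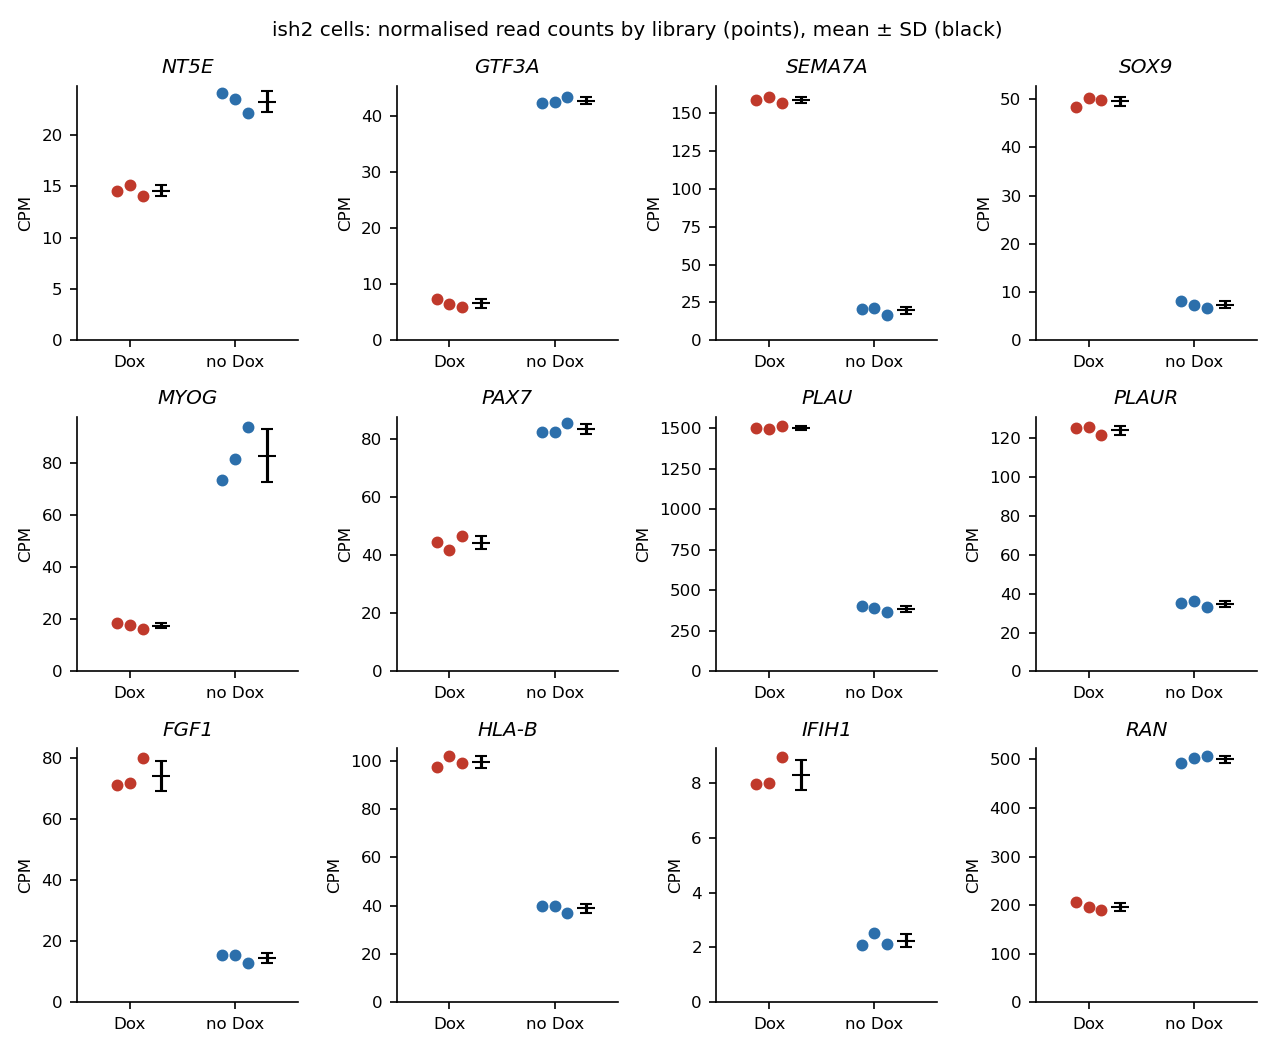
Normalised read counts (CPM) of 12 genes in each of the 3 Dox libraries (red, left) and the 3 libraries without Dox (blue, right) of ish2, with the mean and SD in black and each axis starting at 0. In all 12 panels the groups do not overlap, as was the case for 66.6% of all tested genes. NT5E and PAX7 show the narrowest relative gaps of the 12.

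The urokinase protease and its receptor were both higher with Dox. PLAU, the protease urokinase, was at 1498, 1492 and 1511 CPM with Dox and at 402, 389 and 364 CPM without (log2 fold change 1.96, SE 0.03, edgeR adjusted p = 2.99e-35). Its receptor gene PLAUR was at 125, 126 and 121 CPM with Dox and at 35.3, 36.0 and 33 CPM without (1.83, SE 0.04). The groups did not overlap for either gene, as was the case for 66.6% of all tested genes. Both genes were lower with Dox in ish, where PLAU changed by -2.57 and PLAUR by -1.80. Of 31 tested matrix proteases, inhibitors and lysyl oxidases, 16 were higher and 9 lower, against 33.9% and 31.1% over all tested genes. Their median log2 fold change was 0.23. ADAM12, a protease of myoblasts, rose by 0.71 and the collagen cross-linker LOX by 0.78. The metalloproteinase inhibitors TIMP2 (-0.85) and TIMP3 (-0.90) and the gelatinase MMP2 (-1.32) fell.

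The hyaluronan synthase genes HAS3 and HAS2 were higher with Dox, and HAS3 was among the 15 largest rises. HAS3 was at 16.7, 15.2 and 16.5 CPM with Dox and at 2.35, 2.18 and 2.39 CPM without (log2 fold change 2.81, SE 0.10, edgeR adjusted p = 4.81e-24). HAS2, another synthase, was at 57.1, 61.4 and 60.6 CPM with Dox and at 24.4, 23.2 and 22.5 CPM without (1.35). CD44, the hyaluronan receptor, rose by 1.03 (206 ± 2.33 CPM with Dox and 100.3 ± 3.49 CPM without, SD, n = 3 each). CEMIP, which takes part in hyaluronan breakdown, rose by 1.19. Proteoglycans went the other way in part: SDC4 rose by 0.87 and SDC2 fell by 1.26. Over the list of 25 tested hyaluronan and proteoglycan genes, 9 were higher and 11 lower, DCN among the lower ones. Shares over all tested genes were 33.9% higher and 31.1% lower, and the list had a median of -0.05.

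FGF1 and ANGPT2 had the largest rises among the tested growth factor ligands. FGF1, the acidic fibroblast growth factor, was at 70.9, 71.6 and 79.8 CPM with Dox and at 15.5, 15.6 and 12.7 CPM without (log2 fold change 2.35, SE 0.06, edgeR adjusted p = 3.94e-23). ANGPT2, a ligand of the endothelial receptor TEK, was at 66.2, 64.4 and 72.4 CPM with Dox and at 20.4, 21.9 and 20.8 CPM without (1.69). CTGF, a matrix-bound growth regulator, rose by 1.00. IGF2, the fetal growth factor that rhabdomyosarcomas are known to express, was at 524, 493 and 503 CPM with Dox and at 744, 698 and 722 CPM without (-0.51), and midkine (MDK) fell by 0.62. Of 27 tested ligands, 14 were higher and 6 lower, against 33.9% and 31.1% over all tested genes, with a median of 0.34.

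The receptor list of 24 tested tyrosine kinases had 7 higher and 8 lower with Dox, against 33.9% and 31.1% over all tested genes. Its median log2 fold change was -0.07. FGFR1 was at 128, 127 and 127 CPM with Dox and at 273, 269.9 and 268 CPM without (log2 fold change -1.09, SE 0.03, edgeR adjusted p = 2.36e-27). FGFR4, the receptor typical of muscle progenitors, fell by 0.64 and MET by 0.49. ERBB3 was at 69.9, 66.5 and 71.9 CPM with Dox and at 200.2, 206 and 219 CPM without (-1.58). FLT1, a VEGF receptor, rose by 1.37 and MERTK by 0.92. Of the ERK feedback genes, 14 of 20 were higher and 4 lower. DUSP5, a phosphatase of nuclear ERK, was at 77.6, 78.4 and 81.0 CPM with Dox and at 23.8, 23.7 and 22 CPM without (1.77), and SPRY4 rose by 0.92. DUSP6 rose by 0.27, whereas in ish it fell by 2.95. CCND1, the gene for cyclin D1, fell by 0.72.

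Genes of antigen presentation were higher with Dox almost throughout. Of 21 tested genes of the MHC class I pathway, 19 were higher and 2 lower, against 33.9% and 31.1% over all tested genes. Their median log2 fold change was 0.42, against 0.01 over all tested genes. HLA-B, a class I heavy chain, was at 97.2, 102 and 98.8 CPM with Dox and at 40.0, 40.0 and 36.8 CPM without (log2 fold change 1.35, SE 0.04, edgeR adjusted p = 9.94e-26). HLA-C averaged 118 ± 2.69 CPM with Dox and 59.4 ± 2.53 CPM without (1.00). PSMB9, a subunit of the immunoproteasome, was at 30.1, 30.1 and 29.9 CPM with Dox and at 12.1, 12.9 and 13.3 CPM without (1.23). The peptide transporter genes TAP1 (0.97) and TAP2 (0.55) and the trimming peptidase ERAP1 (0.72) rose, and the light chain B2M rose by 0.25. Calreticulin (CALR), a chaperone of the endoplasmic reticulum, was at 621, 591 and 585 CPM with Dox and at 922, 903 and 1042 CPM without (-0.67), and PSME1 fell by 0.30. The HLA genes are near-identical in part, and HLA-B overlaps HLA-C in the annotation, as PSMB9 overlaps TAP1, so reads could have been split between them. In ish, HLA-B, HLA-C, TAP1, TAP2, ERAP1 and PSMB9 were lower with Dox (HLA-B -1.34, HLA-C -1.02, TAP1 -1.29, TAP2 -1.10, ERAP1 -0.63, PSMB9 -0.73).

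**Figure D3:**
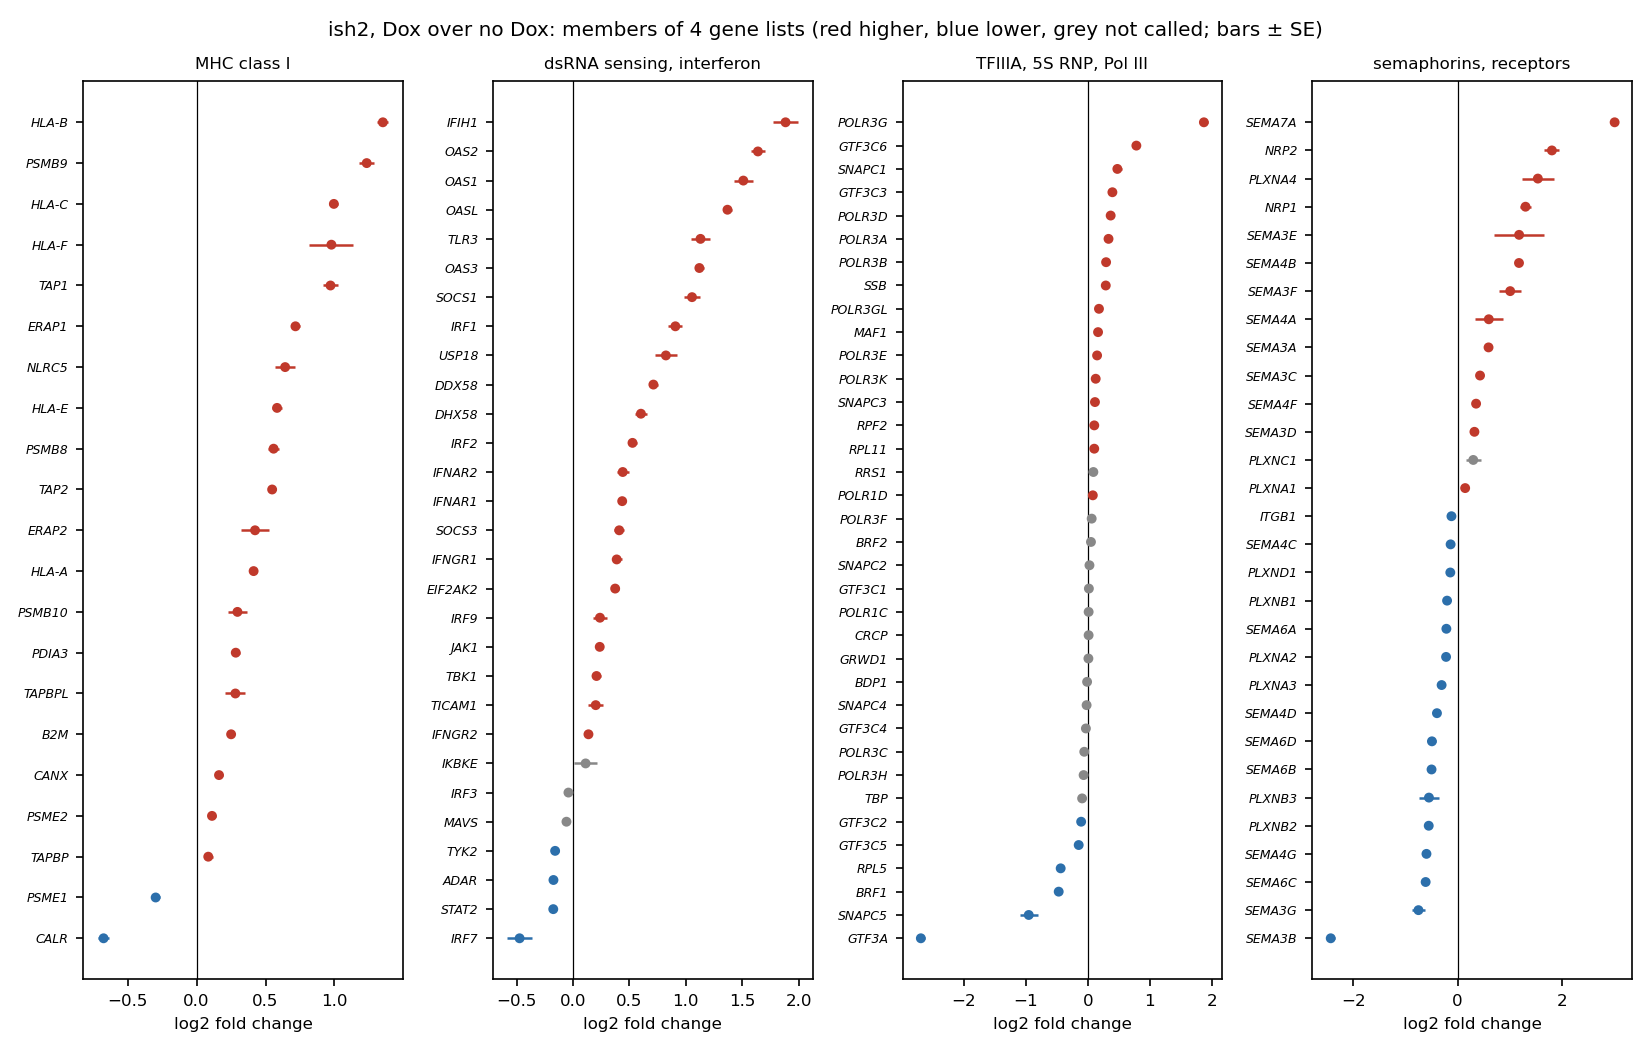
Log2 fold change with its SE, Dox over no Dox in ish2, of the tested and reported members of 4 gene lists. Red is called higher, blue called lower and grey not called. GTF3A at -2.69 and SEMA7A at 3.01 stand alone at one end of their panels, whereas 19 of 21 MHC class I genes and most genes drawn for double-stranded RNA sensing and interferon signalling lie to the right of zero and are called.

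Sensors of double-stranded RNA rose with Dox. IFIH1, the gene for the cytoplasmic sensor MDA5, was at 7.95, 7.97 and 8.92 CPM with Dox and at 2.09, 2.52 and 2.13 CPM without (log2 fold change 1.88, SE 0.11, edgeR adjusted p = 4.95e-17). DDX58, the gene for the sensor RIG-I, was at 70.9, 73.1 and 74.4 CPM with Dox and at 44.3, 44.8 and 44.2 CPM without (0.71). The oligoadenylate synthases, which make a messenger in response to double-stranded RNA, rose together: OAS2 by 1.64, OAS1 by 1.51, OASL by 1.37 and OAS3 by 1.12. OAS2 averaged 34.1 ± 2.25 CPM with Dox and 11 ± 0.0666 CPM without (SD, n = 3 each). The endosomal sensor TLR3 rose by 1.13 and the feedback inhibitor SOCS1 by 1.06. Of the 31 tested genes of this list, 24 were higher and 4 lower, against 33.9% and 31.1% over all tested genes. By 2-fold, 7 were higher and 0 lower, against 3.88% and 2.26%, and the median was 0.41. The listed interferon genes IFNB1 and IFNE were at 0 in every ish2 library. STAT2, a transducer of interferon signals, fell by 0.17 and IRF7, a master factor of the interferon response, by 0.47. IFIH1, OAS1 and OAS3 rose in ish too (0.32, 0.31 and 0.29), whereas OAS2 fell there by 1.10 and DDX58 by 0.66.

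Promoter sequences of such genes are shown because members of the list moved together. They come from the RefSeq table of 250 bases before each gene's start (GRCh38.p14), were searched on both strands for an interferon response element spelled as GAAA, any 2 bases and GAAA, and capitals mark the match.
IFIH1 (chr2:162318685-162318735, minus strand): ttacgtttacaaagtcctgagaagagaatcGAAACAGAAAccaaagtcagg
OAS3 (chr12:112938301-112938370, plus strand): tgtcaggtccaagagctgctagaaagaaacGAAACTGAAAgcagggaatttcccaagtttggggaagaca
OAS3 (chr12:112938432-112938473, plus strand): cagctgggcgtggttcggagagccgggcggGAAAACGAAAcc
TAP2 (chr6:32838758-32838827, minus strand): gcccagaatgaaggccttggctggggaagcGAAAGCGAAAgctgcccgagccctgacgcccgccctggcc
These matches begin 21 bases before the start of IFIH1, which has a further stretch of matches at 159 bases that is not shown, 143 and 12 bases before that of OAS3, and 58 bases before that of TAP2. Among the tested genes with a single listed start, the letters occurred in 2.42% of 8340 promoters, in 6 of 11 promoters of the MHC class I list and in 3 of 16 of the double-stranded RNA list. They occurred in 4.22% of the 308 promoters of genes at least 2-fold higher with Dox and in 1.27% of the 158 promoters of genes at least 2-fold lower. The share over all 22114 listed promoters was 3.21%. A match describes these letters and is not evidence of binding.

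Chemokines, cytokines and complement genes were mostly higher. Of 29 tested genes for chemokines, cytokines and their receptors, 21 were higher and 1 lower, against 33.9% and 31.1% over all tested genes. By 2-fold, 10 were higher and 0 lower, against 3.88% and 2.26%, and the median log2 fold change was 0.78. CCL5, a T cell attractant, was at 23.8, 23.2 and 26.4 CPM with Dox and at 4.62, 5.44 and 4.45 CPM without (log2 fold change 2.34, SE 0.08, edgeR adjusted p = 6.94e-23). LIF, a cytokine of the interleukin-6 family, was at 70.6, 73.7 and 74.1 CPM with Dox and at 30.1, 30.5 and 22.6 CPM without (1.39), and the shared receptor IL6ST and the receptor chain OSMR rose by 0.63 and 0.78. IL27RA rose by 1.22 and IL1RAP, the interleukin-1 receptor partner, by 1.01. IL6 (2.44 ± 0.234 CPM with Dox and 0.501 ± 0.125 CPM without) and CXCL1 (5.47 ± 0.677 CPM with Dox and 1.12 ± 0.124 CPM without, SD, n = 3 each) both had a log2 fold change of 2.28. An NF-kB site spelled as GGG, any 2 bases and TTTCC occurred in 7 of 16 single-start promoters of this list, against 2.01% of 8340. It occurred in 3.25% of the 308 promoters of genes at least 2-fold higher with Dox and 0% of the 158 of genes at least 2-fold lower. The share over all listed promoters was 1.75%. The share within the list describes its members and not their response to Dox.

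C3AR1, the receptor for a fragment of complement C3, was at 14.9, 16.4 and 15.9 CPM with Dox and at 2.20, 2.22 and 1.92 CPM without (log2 fold change 2.90, SE 0.10, edgeR adjusted p = 2.02e-23). The protease inhibitor A2M was at 32.8, 31.5 and 36.8 CPM with Dox and at 7.37, 7.17 and 7.05 CPM without (2.23). The complement inhibitors on the cell surface, CD55 (1.67) and CD46 (0.55), rose too. Of 18 tested complement genes, 11 were higher and 3 lower, against 33.9% and 31.1% over all tested genes. By 2-fold, 6 were higher and 0 lower, against 3.88% and 2.26%. C3AR1 and PLAUR have a match to the AP-1 letters TGANTCA, shown in capitals.
C3AR1 (chr12:8066456-8066522, minus strand): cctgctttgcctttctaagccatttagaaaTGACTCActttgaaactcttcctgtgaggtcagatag
PLAUR (chr19:43670319-43670385, minus strand): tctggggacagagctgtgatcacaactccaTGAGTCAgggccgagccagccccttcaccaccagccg
These letters occurred in 7.79% of the 308 promoters of genes at least 2-fold higher, 6.33% of the 158 of genes at least 2-fold lower, 3.96% of 8340 promoters of tested genes and 6.86% of all listed promoters.

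Genes downstream of cAMP and of growth signals were higher with Dox. Of 22 tested cAMP and CREB responsive genes, 21 were higher and none lower, against 33.9% and 31.1% over all tested genes. Their median log2 fold change was 0.81. IRS2, an adaptor of the insulin receptor, was at 24.0, 23.2 and 23.3 CPM with Dox and at 6.97, 6.20 and 5.28 CPM without (log2 fold change 1.93, SE 0.07, edgeR adjusted p = 5.94e-23). CREM, a cAMP-responsive factor, rose by 0.98, the circadian repressor BHLHE40 by 1.16 and the G protein regulator RGS2 by 0.86. The machinery that makes and reads cAMP was mixed, with 21 higher and 11 lower of 43. PRKACB, a catalytic subunit of protein kinase A, rose by 0.74 and its anchor AKAP12 by 0.69, while PKIA, an inhibitor of the kinase, was at 23.1, 23.4 and 22.1 CPM with Dox and at 38.9, 42.0 and 42.6 CPM without (-0.85). GNAS, the stimulatory G protein, fell by 0.38. The cAMP response element, searched as TGACGTCA, occurred in 2 of 11 single-start promoters of the cAMP and CREB responsive list. It occurred in 1.95% of the 308 promoters of genes at least 2-fold higher and 0.633% of the 158 of genes at least 2-fold lower. The shares were 3.19% of 8340 promoters of tested genes and 1.82% of all listed promoters.

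Immediate early genes followed the same direction for the most part, with 19 higher and 2 lower of 26. Over all tested genes the shares were 33.9% and 31.1%. KLF4 was at 42.0, 42.8 and 46.5 CPM with Dox and at 16.2, 16.0 and 12 CPM without (log2 fold change 1.57, SE 0.08, edgeR adjusted p = 6.94e-12). KLF10 rose by 1.08, and in the list of 14 tested KLF genes 8 were higher and 2 lower. These lists share members, such as KLF4 and KLF10 here and FOSB with the cAMP list, so their counts are not independent. EGR1 rose by 0.66, MYC by 0.41 and FOSB, a partner of JUN proteins, by 1.74. JUN (-0.01) was not called, and JUND fell by 0.41.

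Genes that make and move adenosine changed in both directions. Of 22 tested enzymes and transporters, 8 were higher and 11 lower, against 33.9% and 31.1% over all tested genes. Their median log2 fold change was -0.06. SLC29A1, the main transporter that carries adenosine across the membrane, was at 120.2, 114 and 118 CPM with Dox and at 221, 225 and 229.8 CPM without (log2 fold change -0.94, SE 0.03, edgeR adjusted p = 2.81e-25), which is larger in absolute value than the change of NT5E. SLC29A2 (-0.50) and SLC29A4 (-0.64) fell as well, and SLC29A3, the lysosomal member, was at 10.8, 12.1 and 12.3 CPM with Dox and at 5.13, 6.31 and 5.42 CPM without (1.06). PNP, which breaks down inosine, rose by 0.63 and adenosine kinase (ADK) by 0.14. Of the nucleotide-cleaving enzymes, ENTPD6 (0.42) and ENPP1 (0.52) rose, ENTPD1 (0.01) was not called, and ENTPD8 and ENTPD2 fell. ENTPD8 averaged 0.703 ± 0.106 CPM with Dox and 1.46 ± 0.208 CPM without (-1.06), and ENTPD2 averaged 0.130 ± 0.116 CPM with Dox and 0.525 ± 0.220 CPM without (-2.02, SD, n = 3 each), so both rest on few reads. ALPL, a phosphatase that can make adenosine, fell by 0.57, and AHCY, which handles intracellular adenosine, by 0.24.

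Of 9 tested adenosine and ATP receptors, 3 were higher and 3 lower, near the shares of 33.9% and 31.1% over all tested genes. ADORA1, which lowers cAMP, was at 23.1, 21.9 and 22.3 CPM with Dox and at 37.1, 36.3 and 43.9 CPM without (log2 fold change -0.80, SE 0.06, edgeR adjusted p = 1.75e-12). ADORA2B, which raises it, was at 24.4, 23.3 and 21.3 CPM with Dox and at 25.2, 25.4 and 26.2 CPM without. Its log2 fold change was -0.16 (adjusted p = 0.0137, and 0.0819 without Dox replicate 3). P2RY6, a receptor for UDP, had the largest rise of the list (1.6) at a low level, 0.716 ± 0.139 CPM with Dox and 0.232 ± 0.0190 CPM without (SD, n = 3 each). The ATP-gated channels P2RX5 (0.87) and P2RX4 (0.23) rose and P2RX6 (-0.58) fell. ADORA1 lies on chromosome 1 between MYOG and MYBPH, at 203090654 to 203167405, and both neighbours were lower with Dox too.

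MYOG and PAX7 fell with Dox, while MYOD1 rose slightly. MYOG, which drives terminal differentiation, was at 18.5, 17.7 and 16.5 CPM with Dox and at 73.4, 81.5 and 93.9 CPM without (log2 fold change -2.24, SE 0.10, edgeR adjusted p = 1.55e-08). MYOD1, the determining factor, was at 154, 152 and 146 CPM with Dox and at 132, 130.0 and 139 CPM without, a rise of 0.17. PAX7, of muscle stem cells, was at 44.4, 42.0 and 46.5 CPM with Dox and at 82.3, 82.5 and 85.4 CPM without (-0.91). ID2, an inhibitor of MYOD1 family factors, was at 17.4, 16.4 and 15.8 CPM with Dox and at 4.37, 4.58 and 4.01 CPM without (1.94), and ID1 rose by 1.00. The E proteins that pair with MYOD1, TCF3 (-0.68) and TCF12 (-0.45), fell. MSTN, the secreted brake on muscle growth, was at 213, 205 and 227 CPM with Dox and at 525, 529 and 596 CPM without (-1.35). In the list of 30 tested myogenic regulators, 16 were higher and 10 lower, against 33.9% and 31.1% over all tested genes. The median was 0.14.

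Several structural muscle genes were among the largest falls. The calcium pump gene ATP2A1 was at 20.4, 18.8 and 19.0 CPM with Dox and at 90.9, 93.0 and 99.7 CPM without (log2 fold change -2.28, SE 0.06, edgeR adjusted p = 1.07e-18). MYBPH, a myosin-binding protein, was at 2.30, 2.71 and 2.84 CPM with Dox and at 12, 13.4 and 13 CPM without (-2.29). The light chain MYL4 (-1.87), the heavy chain MYH8 (-1.81), the muscle creatine kinase CKM (-1.56), the calcium-binding protein SRL (-1.18) and the troponin TNNT2 (-1.02) fell as well. MYBPH, MYL4, MYH8, CKM, SRL and TNNT2 all rose in ish. They are among the 8 largest opposite differences from ish that the naming rule takes, so their rise there follows from that choice. Reads of MYH8 could be shared with other myosin heavy chains of near-identical sequence. Among 12 tested genes of the acetylcholine receptor and endplate, 8 were lower and 3 higher, with a median of -0.36. Over all tested genes 31.1% were lower and 33.9% higher. CHRND was at 288, 282 and 302 CPM with Dox and at 574, 586 and 535 CPM without (-0.96), and CHRNG fell by 0.83 and DOK7, which activates the receptor kinase MUSK, by 1.07. CHRNA1, the alpha subunit, averaged 1153 ± 7.29 CPM with Dox and 1136 ± 3.68 CPM without and was not called. Of the 17 tested genes of myoblast fusion and membrane repair, 7 were higher and 7 lower. ANXA1 (1.42), DYSF (1.00) and MYOF (0.58), which work in membrane repair, rose, while the fusion gene TMEM8C (-1.06) and M-cadherin, CDH15 (-0.58), fell.

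Promoters of some of these falling genes hold the E-box letters CAGCTG, a sequence that MYOD1 family factors are known to bind. They are shown with the letters in capitals.
MYBPH (chr1:203175861-203175926, minus strand): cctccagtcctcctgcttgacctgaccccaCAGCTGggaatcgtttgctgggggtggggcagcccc
CKM (chr19:45322939-45323004, minus strand): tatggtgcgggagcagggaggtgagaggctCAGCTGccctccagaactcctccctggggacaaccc
TNNT2 (chr1:201377861-201377926, minus strand): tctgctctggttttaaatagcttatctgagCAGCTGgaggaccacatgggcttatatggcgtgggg
ATOH8 (chr2:85753746-85753811, plus strand): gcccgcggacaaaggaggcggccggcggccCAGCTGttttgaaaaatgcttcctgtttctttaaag
The match begins 70 bases before the listed start of MYBPH, which has another at 222 bases, 99 bases before that of CKM, 216 before that of TNNT2 and 215 before that of ATOH8. The letters read the same on both strands. They occurred in 27.2% of the 158 single-start promoters of genes at least 2-fold lower with Dox, in 11.7% of the 308 of genes at least 2-fold higher, in 13.5% of 8340 promoters of tested genes and in 13.9% of all listed promoters. The letters TATAAA showed the other order, with 19.2% of the promoters of genes at least 2-fold higher, 8.23% of those at least 2-fold lower, 5.68% of 8340 and 11.8% of all listed promoters. The E2F letters TTTCCCGC occurred in 1.3% of the promoters of genes at least 2-fold higher, 0% of those at least 2-fold lower and 2.18% of 8340. No searched letter string contains another. These shares are descriptions of genes chosen by their change, with no test.

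Among 36 tested BMP and TGF-beta response genes, 19 were higher and 9 lower, against 33.9% and 31.1% over all tested genes. By 2-fold, 9 were higher and 3 lower, against 3.88% and 2.26% over all tested genes. LTBP2, a latent TGF-beta binding protein, was at 101, 99.1 and 103 CPM with Dox and at 29, 30.4 and 26.1 CPM without (log2 fold change 1.83, SE 0.04, edgeR adjusted p = 7e-29). NOG, the secreted BMP antagonist noggin, was at 141, 142 and 146 CPM with Dox and at 50.9, 51.8 and 44.5 CPM without (1.54), and the matrix protein TGFBI rose by 1.26. ATOH8, a helix-loop-helix factor, was at 2.84, 2.37 and 2.11 CPM with Dox and at 13.6, 13.1 and 14.3 CPM without (-2.48).

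Among 26 tested NOTCH pathway genes, 8 were higher and 12 lower, against 33.9% and 31.1% over all tested genes. The ligand JAG1 was at 145, 151 and 148 CPM with Dox and at 71.6, 73.6 and 66.9 CPM without (log2 fold change 1.07), and the target HES1 rose by 1.31. The target HEYL was at 65.1, 62.6 and 62.3 CPM with Dox and at 133, 133 and 139 CPM without (-1.09), and the glycosyltransferase LFNG (-1.17) and the receptor NOTCH3 (-0.55) fell. Known targets of the pathway thus lay on both sides.

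Among 21 tested WNT feedback genes, 5 were higher and 9 lower, against 33.9% and 31.1% over all tested genes. NOTUM, a secreted enzyme that inactivates WNT proteins, was at 3.50, 3.97 and 3.36 CPM with Dox and at 19.0, 23.3 and 19.2 CPM without (log2 fold change -2.51, SE 0.09, edgeR adjusted p = 4.8e-23). The inhibitor DRAXIN was at 1.27, 1.30 and 1.12 CPM with Dox and at 4.66, 5.11 and 5.28 CPM without (-2.03), and NKD2 fell by 1.15. The secreted inhibitors DKK2 (1.27) and DKK1 (0.41) rose. DRAXIN changed by -1.89 in ish, and its effects in the constructs were not called different (adjusted p = 0.549).

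Of 31 tested targets of YAP and TEAD factors, 13 were higher and 12 lower, against 33.9% higher and 31.1% lower over all tested genes, and the median log2 fold change was 0.05. CTGF rose by 1.00 and AMOTL1 by 0.73. ASAP1, a GTPase regulator, was at 85.9, 83.8 and 90.3 CPM with Dox and at 222, 209 and 226 CPM without (log2 fold change -1.34, SE 0.03, edgeR adjusted p = 9.15e-29), and IGFBP3 fell by 1.52. CYR61, a widely used target, was not called (0.05).

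Cell cycle genes of G1 gave 11 higher and 14 lower of 29, against 33.9% and 31.1% over all tested genes. Their median log2 fold change was -0.09. E2F2 was at 14.3, 14.6 and 14.3 CPM with Dox and at 34.7, 33 and 39.9 CPM without (log2 fold change -1.32, SE 0.07, edgeR adjusted p = 2.11e-13). CDKN1A, the gene for the cell-cycle inhibitor p21, was at 186, 188 and 200.5 CPM with Dox and at 138, 144 and 122 CPM without (0.51, SE 0.07, edgeR adjusted p = 9.15e-05). MKI67, the proliferation marker, was at 292, 293 and 292 CPM with Dox and at 655, 596 and 719 CPM without (-1.17, SE 0.06, adjusted p = 1.94e-08).

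Of 32 tested genes of the ATF4 and integrated stress response, 12 were higher and 10 lower, against 33.9% and 31.1% over all tested genes. Their median log2 fold change was 0.07, and the higher count was 7 without Dox replicate 2 and likewise without Dox replicate 3. VLDLR, a lipoprotein receptor, averaged 3.45 ± 0.715 CPM with Dox and 1.42 ± 0.455 CPM without (1.28), and NUPR1 fell by 1.23, the only members called at 2-fold or more. PYCR1, of proline synthesis, fell by 0.62 and ATF4 itself by 0.19. Doxycycline is known to bind bacterial and, more weakly, mitochondrial ribosomes. Of 76 tested mitochondrial ribosomal protein genes, 27 were higher and 21 lower, near the shares of 33.9% and 31.1% over all tested genes. None was called at 2-fold or more, and the median was 0.02. Effects of Dox on mitochondrial ribosomes were not tested, and these mRNA levels do not measure them. MRPS7 was at 71.4, 71.1 and 69.8 CPM with Dox and at 114, 119 and 123 CPM without (-0.75), and MRPL3 rose by 0.29.

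Adhesion and hormone genes moved in both directions. In the list of 20 tested cadherins and protocadherins, 10 were higher and 7 lower, against 33.9% and 31.1% over all tested genes. PCDH9, a protocadherin, was at 9.25, 8.75 and 8.66 CPM with Dox and at 1.77, 1.43 and 1.37 CPM without (log2 fold change 2.54, SE 0.12, edgeR adjusted p = 8.28e-20), CDH11 rose by 1.27 and PCDH18 fell by 1.17. Of 22 tested vitamin D, retinoid and steroid genes, 9 were higher and 6 lower, and CYP24A1, which breaks down vitamin D, was at 4.39, 4.71 and 4.41 CPM with Dox and at 0.433, 0.413 and 0.651 CPM without (3.16, SE 0.19).

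**Figure D4:**
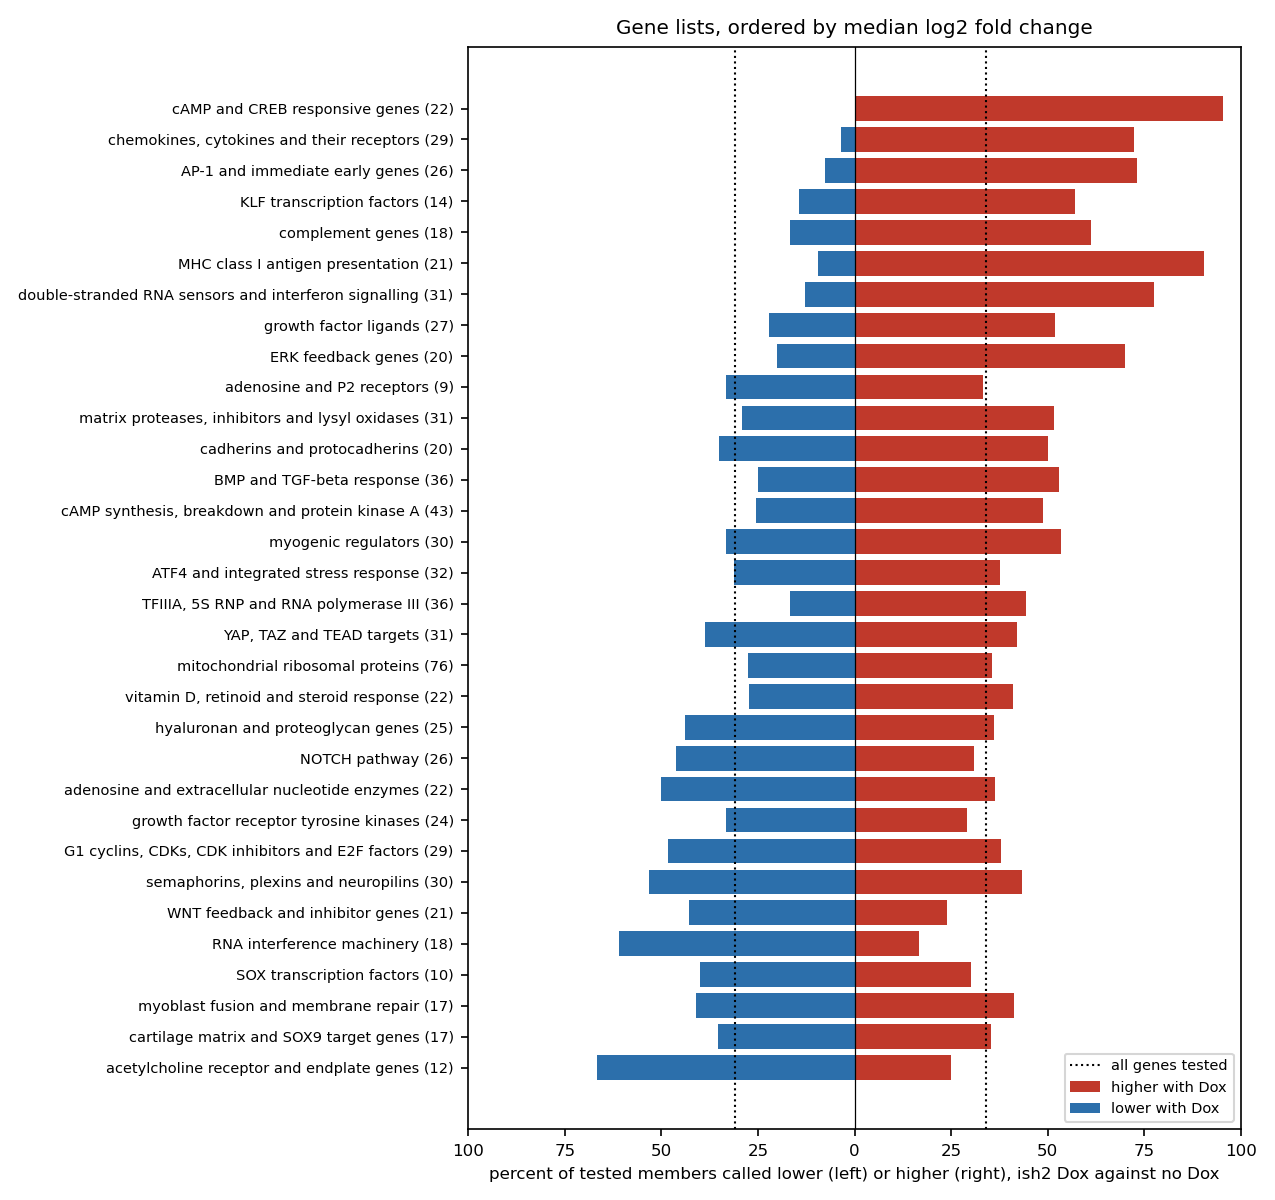
Percent of tested members called higher (red, right) or lower (blue, left) with Dox in ish2 for each of the reported gene lists, ordered by median log2 fold change, with the number of tested members in brackets. Dotted lines mark 33.9% and 31.1%, the shares over all tested genes. cAMP and CREB responsive genes are at the top and acetylcholine receptor genes at the bottom.

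Some of the largest changes belonged to none of these lists. MIAT, a long noncoding RNA, was at 30.9, 30.1 and 29.7 CPM with Dox and at 4.52, 4.39 and 4.81 CPM without (log2 fold change 2.72, SE 0.07, edgeR adjusted p = 9.21e-28). RGS8, a G protein regulator (2.7), CHGB, a secretory granule protein (2.64), SPP1, the matrix protein osteopontin (2.57), SALL1, a developmental zinc finger factor (2.39), the carbonic anhydrase CA13 (2.34) and the noncoding RNA LINC00673 (2.32) rose. NKAIN4, a partner of the sodium pump, was at 4.93, 4.04 and 4.67 CPM with Dox and at 26.4, 24.6 and 26.5 CPM without (-2.50). ADAM28 (-2.16), the potassium channel KCNH2 (-1.93) and the septin SEPT4 (-1.92) fell. FRG2 was at 12.8, 11.9 and 12.5 CPM with Dox and at 0.253, 0.263 and 0.181 CPM without, a log2 fold change of 5.72, and since it belongs to a family of near-identical copies its reads cannot be placed with certainty.

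The ish2 response was set against that of ish, whose libraries are separate. Of the 9883 genes called in ish2, 8220 were called in ish too, 4249 in the same direction and 3971 in opposite directions (26.1% of all tested genes). The opposite genes comprised 2140 that were higher with Dox in ish2 and lower in ish, and 1831 the other way. The difference of the effects was called for 11039 genes (72.6%), with the ish2 effect higher for 5688 (37.4%) and lower for 5351 (35.2%). Among the 590 genes at least 2-fold higher in ish2, 167 were higher in ish, 262 were lower in ish and 161 were not called there. Among the 343 at least 2-fold lower, 106 were lower in ish, 158 were higher and 79 were not called. Of all 933, the difference was called for 758. The share of all tested genes called in ish is not given here. The overlap and the splits by direction therefore have no baseline and were not tested.

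Genes called in both constructs in opposite directions were led by C3AR1, with a log2 fold change of 2.90 in ish2 and -5.20 in ish (difference 8.10, edgeR adjusted p = 8.42e-22). In ish C3AR1 averaged 0.0427 CPM with Dox and 1.74 CPM without, so its ish change and the difference rest on few reads. VGF, a secreted neuropeptide precursor, was at 28.5, 31.1 and 31.0 CPM with Dox and at 9.86, 11.6 and 7.27 CPM without in ish2 (1.66), and changed by -4.52 in ish. EMP1, a membrane protein, was at 781, 816 and 819 CPM with Dox and at 259, 260.3 and 197 CPM without in ish2 (1.75), and changed by -3.66 in ish. KIAA0226L (1.5 in ish2, -4.41 in ish) had the same signs. For CCL2 and LOC728084 the ish2 change was small (0.23 and 0.34) and the ish change large (-6.91 and -5.35). On the other side, ARPP21 had -0.75 in ish2 and 4.55 in ish, TNNT2 -1.02 in ish2 and 3.90 in ish, CKM -1.56 in ish2 and 3.33 in ish, and MYOG -2.24 in ish2 and 2.62 in ish. PAX7, with -0.91 in ish2, had a log2 fold change in ish that rounds to 0 (adjusted p = 0.929).

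**Figure D5:**
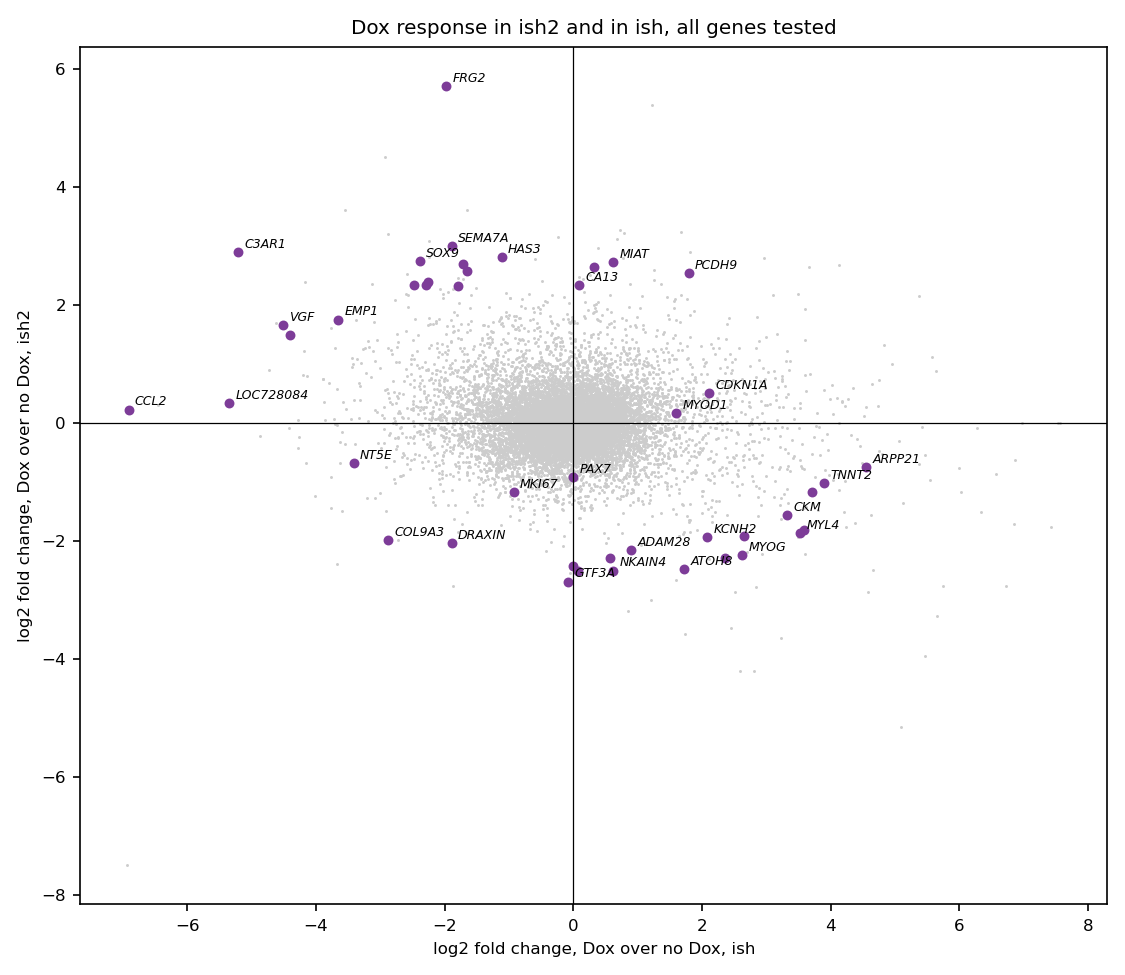
Log2 fold change, Dox over no Dox, of each tested gene in ish2 (vertical) against ish (horizontal), with the marker genes and reported genes from the 15 largest rises and falls and the largest opposite differences, in purple and in part labelled. C3AR1, SEMA7A and SOX9 lie at upper left, higher with Dox in ish2 and lower in ish, MYOG, CKM and TNNT2 at lower right, and GTF3A lies low near the vertical zero line.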

How the data were processed

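The authors deposited raw read counts per gene for each library, and per the submitters' processing notes the reads were handled with Trim Galore 0.6.4, STAR 2.7.3a and featureCounts of Subread 1.6.3 on GRCh38. The settings of these tools are not stated, and neither is whether counting used strand, so overlapping and antisense genes are uncertain. The 5 rows for reads outside genes, ambiguous, not unique or not aligned reads stayed out of library sizes and tests, and not uniquely placed reads were 7.15 to 7.38% with Dox and 7.19 to 7.28% without.

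From the deposited counts, edgeR 4.0.16 in R 4.3.3 fitted all 12 libraries with a mean per group (filterByExpr, TMM, robust quasi-likelihood, 8 residual degrees of freedom), and p-values were adjusted by Benjamini and Hochberg over all 15206 tested genes. SE is the absolute log2 fold change over the square root of F. The 2-fold rule is a description added to the call. Tables and promoter searches used Python 3.11.15, pandas 2.3.3 and scipy 1.17.1. Alternatives were DESeq2 1.42.0, RLE scaling, no scaling, no low-count filter, the ish2 libraries alone, a 1.2-fold null (glmTreat), each library left out, and replicate numbers as a block. On simulated data for the ish2 comparison, 88% of 50 genes changed 1.25-fold, 80% of 50 changed 1.5-fold and 100% of 48 changed 2-fold were called. So were 10 of 14798 unchanged genes. The simulation changed few genes and gave all genes a common spread, unlike the data. Its shares therefore do not carry over to the calls above.

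The genes and lists were chosen with earlier results of these data known. Genes are named if they are NT5E, SEMA7A, SOX9, GTF3A, MYOG, MYOD1, PAX7, CDKN1A or MKI67, among the 15 largest called rises or falls without overlap (at least 5 CPM in the higher and 0.5 CPM in the lower group), among up to 5 members of a list with the smallest p, in the adenosine, RNA polymerase III, SOX or RNA interference lists, among the 8 largest opposite differences each way from ish, or among the 6 steadiest genes above 100 CPM. Some other genes named in the text, such as IL6, LIF and IFIH1, fall outside this rule and were chosen after their values were seen. Replicates of a group differed by more than sampling noise, with chi-square per degree of freedom of 1.42 to 4.22. Some genes and 1 gene list are not reported here.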

Additional observations from a re-analysis of the deposited data

Results flagged for a closer look

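The Dox effect in ish2 differed from that in ish for 11039 genes, by edgeR's test of the difference itself (ish2 minus ish, log2). Among the marker genes, the difference was 2.74 for NT5E, 4.90 for SEMA7A, 5.13 for SOX9 and -2.61 for GTF3A. It was -4.87 for MYOG, -1.42 for MYOD1, -0.91 for PAX7, -1.60 for CDKN1A and -0.24 for MKI67.

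Among the genes with opposite calls, the ish2 effect was higher for C3AR1 (8.10), FRG2 (7.69), CCL2 (7.14), VGF (6.18), KIAA0226L (5.91), LOC728084 (5.69) and EMP1 (5.41). It was lower for MYH8 (-5.40), MYL4 (-5.39), ARPP21 (-5.30), TNNT2 (-4.92), SRL (-4.89), CKM (-4.88) and MYBPH (-4.64). The C3AR1 difference rests on a mean of 0.0427 CPM in ish with Dox. FRG2 had few reads in ish2 without Dox and belongs to a family of near-identical copies, so its difference is uncertain too.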

How the results depend on the processing

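With the null at a 1.2-fold change, 4419 genes were called, 2264 higher and 2155 lower, which by construction asks for larger changes. The count was 9061 with DESeq2 (9049 shared with the 9883 calls), 9475 with the ish2 libraries alone, 9880 with RLE scaling, 9884 without scaling and 9938 without the low-count filter. Without 1 library at a time it ranged from 9350 to 9579, with 4604 to 4788 higher and 4654 to 4791 lower. Genes changed at least 2-fold ranged from 942 to 997, against 933 with all libraries, and called differences between constructs from 10807 to 10977. Over the same removals the log2 fold change ranged from -2.80 to -2.63 for GTF3A, -0.72 to -0.66 for NT5E, 2.89 to 3.06 for SEMA7A and 2.66 to 2.81 for SOX9. The 2-fold count moved further in other fits, to 822 with the ish2 libraries alone and 1134 without the low-count filter. Same-numbered ish2 libraries did not deviate together (correlations -0.02, 0.02 and -0.08), and a replicate block called 9695 genes, 9657 of them shared. No shared call changed sign under any of these. Of the named genes, ADA lost its call without no-Dox replicate 2 (adjusted p = 0.0632, edgeR). Calls of genes below about 1 CPM are limited by depth: of the 3802 genes with the lowest mean CPM 39.6% were called, against 78.5% of the 3802 with the highest.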

Other observations

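Calls were not spread evenly over gene types. Of 349 tested antisense genes 43 were higher and 92 lower with Dox, with a median log2 fold change of -0.14, against 4895 higher and 4319 lower of 13493 protein-coding genes (0.02). Of 272 lincRNA genes 60 were higher and 56 lower. Whether counting used strand is not stated, so antisense reads cannot be told from those of the partner gene.

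Chromosomes differed in the balance of calls. On chromosome 16, 147 genes were higher and 294 lower of 671 (median log2 fold change -0.11), and on chromosome 19, 264 and 397 of 1081. On chromosome 4, 218 were higher and 124 lower of 505 (0.10), and on chromosome 6, 307 and 181 of 741 (0.08). These are descriptions with no test.

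MYOG, ADORA1 and MYBPH are neighbours on chromosome 1, and all were lower with Dox in ish2 (-2.24, -0.80 and -2.29) and higher in ish (2.62, 1.09 and 2.35). MYOG and MYBPH are among the largest opposite differences from ish, which are part of the naming rule.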
